A study of Homo sapiens with 19 samples.

Results

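The genes described here are the neighbours of HIF1A on chromosome 14, a stretch of band 14q23 in which FLJ22447, PRKCH, SNAPC1, TMEM30B, SLC38A6, MNAT1 and TRMT5 were followed by symbol. They are 7 of the 23441 genes in the count table, and 12 of the 29309 called ChIP-seq peaks lay within 50 kb of them. The locus was chosen by the measured fall of FLJ22447 in HIF-2α against control cells, so the levels of all members in HIF-2α cells against control cells, and every contrast of FLJ22447 that uses the HIF-2α libraries, are given as descriptions without a test. All samples were pools of 786-O cells, an established clear cell renal carcinoma line that is VHL defective, so that HIF-α subunits escape oxygen-dependent degradation, and that makes no full-length HIF-1α of its own. One pool received empty pRRL lentivirus (control), another pRRL-HIF-1α and another pRRL-HIF-2α, each vector also encoding EGFP behind an IRES. Control cells hold endogenous HIF-2α. RNA was sequenced as 3 libraries per pool. Chromatin bound by HIF-2α, or by HIF-1β, the partner of both HIF-α subunits, was sequenced as 1 library per antiserum and pool. Chromatin bound by HIF-1α was sequenced as 1 library, in HIF-1α cells only, so HIF-1α binding in the other pools was not measured.

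HIF1A encodes HIF-1α, an oxygen-regulated transcription factor subunit that dimerizes with HIF-1β and binds the hypoxia response element, whose core reads ACGTG or GCGTG. The long arm of chromosome 14 that carries HIF1A is often lost in clear cell renal carcinoma. The genes around HIF1A have unrelated functions, from transcription of small nuclear RNAs (SNAPC1) to tRNA methylation (TRMT5), and they share a place on the chromosome rather than a pathway.

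The total count per RNA library ranged from 27852754 to 54287621. Of the renal carcinoma line markers, PAX8 stood between 175 and 364 counts per 1000000 counts of the library (CPM, with library sizes scaled by TMM) and VIM between 3963 and 5671 CPM, so that both were high in every library. CA9 ranged from 0 to 177 CPM and NDUFA4L2 from 0.171 to 2.12 CPM. Leukocyte markers CD3E and PTPRC stood at 0 and at no more than 0.0853 CPM, and all 4 endothelial markers summed to at most 1.27 CPM. Markers of leukocytes otherwise came from CD68, at 28.6 to 160 CPM, which cell lines of other origins express too. The 9 pairs of libraries that share a replicate number deviated together, and the libraries numbered 3 stood apart for several of the genes below. In bulk RNA, fewer cells with a transcript and less of it per cell cannot be told apart.

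In GRCh37 coordinates, and in order along the chromosome, MNAT1 spans chr14:61201460-61436683 on the plus strand, TRMT5 spans chr14:61438159-61447888 on the minus strand and SLC38A6 spans chr14:61447832-61581034 on the plus strand. PRKCH follows at chr14:61654277-62017694 on the plus strand, with TMEM30B inside its bounds on the opposite strand at chr14:61744088-61748479. FLJ22447, which the annotation lists as the long non-coding RNA LINC03033 (a link between names that rests on background knowledge, since no table used here pairs them), spans chr14:62037123-62125414 on the plus strand. Its start lies 125.1 kb before that of HIF1A, at chr14:62162231-62214977. SNAPC1, at chr14:62229138-62263146, starts 66.9 kb after HIF1A on the same strand.

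The 12 peaks at the locus formed 6 sites, where peaks with at least 1 shared base were merged. The deposited windows are all 2500 bp wide and hold no score or signal, so that presence in a list is the only measure and no site could be tested. The site found in most lists lay upstream of FLJ22447, at chr14:62027350-62031220. It was called in 5 of the 7 lists: HIF-2α and HIF-1β in control cells, HIF-1α in HIF-1α cells, and HIF-2α and HIF-1β in HIF-2α cells. The midpoints of these 5 windows lay between 8.52 and 7.15 kb before the FLJ22447 start, in an exon of LINC01303, a long non-coding RNA on the minus strand. All 5 windows shared chr14:62028721-62029849, a stretch of 1129 bp. It was not called with HIF-1β in HIF-1α cells, whose nearest window began after a gap of 2950 bp, at chr14:62034171-62036670, with its midpoint 1.7 kb before the FLJ22447 start. No peak of HIF-2α in HIF-1α cells lay at the locus, in a list of 1350 peaks in all.

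The other sites held fewer lists. HIF-1α and HIF-1β in HIF-1α cells both had a peak at the HIF1A start, with midpoints 0.08 and 0.14 kb after it. Within PRKCH, HIF-1β in control cells had a peak at chr14:61938039-61940538, and HIF-1β in control cells and HIF-2α in HIF-2α cells had overlapping peaks at chr14:61990592-61993998. The remaining peak, HIF-1β in HIF-1α cells, lay 11.42 kb before the MNAT1 start and 0.16 kb from an annotated start of SIX4. PRKCH was the only member with a peak within its bounds, and none fell in SNAPC1, TMEM30B, SLC38A6, TRMT5, MNAT1 or FLJ22447. On the reference genome, the peaks at the HIF1A start were the nearest to the start of SNAPC1.

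**Figure D1:**
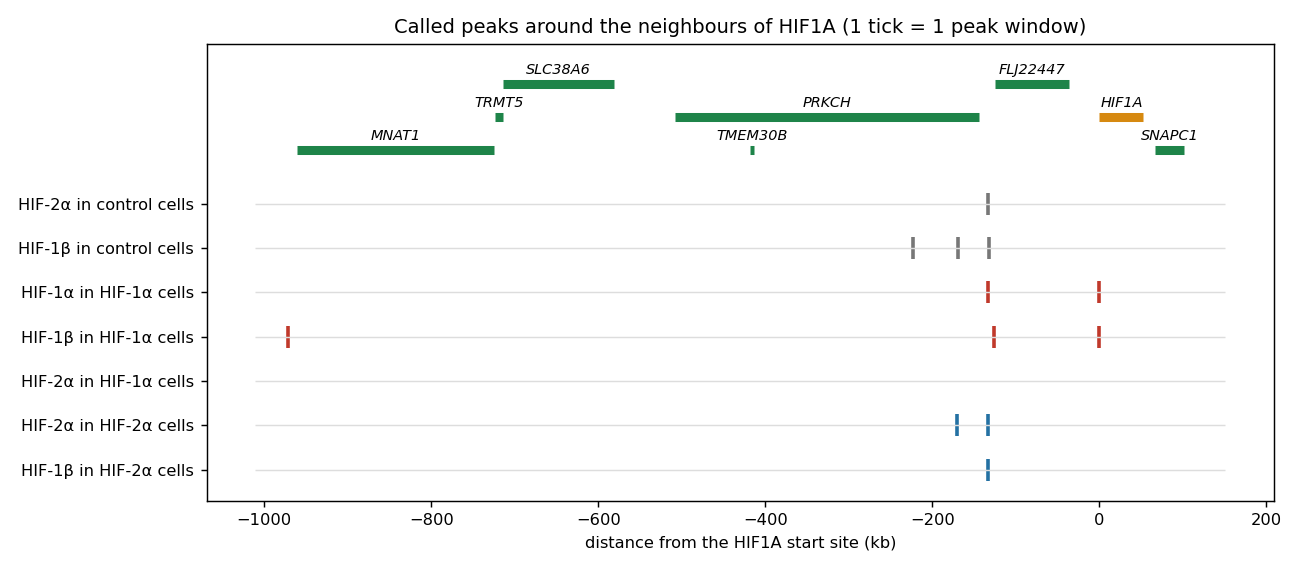
Called ChIP-seq peaks in the 7 lists (rows, 1 tick per window, coloured by cell pool) against distance from the HIF1A start site in kb, with the span of each gene above. In 5 lists there is a tick about 133 kb before HIF1A, beside the FLJ22447 start, and the row of HIF-2α in HIF-1α cells is empty.

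Sequence at the shared site is shown because it holds the match to the HIF consensus that 4 of the 5 windows cover, and the AP-1 matches that all 5 cover. Sequence before the FLJ22447 start and before HIF1A is shown because peaks of HIF-1α cells lie there. Letters are the GRCh37 plus strand, and capitals mark the HRE core (ACGTG or GCGTG on either strand, so CACGT and CACGC on the strand printed) and AP-1 (TGACTCA, or TGAGTCA on the strand printed).
Shared site, chr14:62028635-62028934: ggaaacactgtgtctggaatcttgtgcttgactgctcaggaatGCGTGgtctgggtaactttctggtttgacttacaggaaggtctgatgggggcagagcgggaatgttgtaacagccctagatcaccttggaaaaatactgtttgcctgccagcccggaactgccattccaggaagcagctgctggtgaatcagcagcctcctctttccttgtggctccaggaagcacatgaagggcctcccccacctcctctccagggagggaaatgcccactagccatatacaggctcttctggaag
AP-1 part of the shared site, chr14:62029622-62029819: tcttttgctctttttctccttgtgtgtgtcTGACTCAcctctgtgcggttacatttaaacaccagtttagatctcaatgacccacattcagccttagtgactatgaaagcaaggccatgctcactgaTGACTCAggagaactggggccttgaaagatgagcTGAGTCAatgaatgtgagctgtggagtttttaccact
HIF-1β site in HIF-1α cells, chr14:62035271-62035570: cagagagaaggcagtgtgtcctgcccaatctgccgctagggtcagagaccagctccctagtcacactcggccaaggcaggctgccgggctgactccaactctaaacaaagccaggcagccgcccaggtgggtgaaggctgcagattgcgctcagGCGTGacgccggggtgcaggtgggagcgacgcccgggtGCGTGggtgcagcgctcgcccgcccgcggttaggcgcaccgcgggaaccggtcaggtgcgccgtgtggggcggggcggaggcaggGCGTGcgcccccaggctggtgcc
Before the HIF1A start, chr14:62161931-62162230: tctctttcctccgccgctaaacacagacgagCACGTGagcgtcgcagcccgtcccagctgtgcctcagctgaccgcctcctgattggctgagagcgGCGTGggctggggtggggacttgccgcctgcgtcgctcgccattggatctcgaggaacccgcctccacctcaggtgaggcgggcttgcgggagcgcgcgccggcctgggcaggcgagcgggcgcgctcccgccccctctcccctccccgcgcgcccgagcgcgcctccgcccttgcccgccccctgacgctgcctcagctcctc

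An HRE core stood in the middle 300 bases of 7 of the 12 windows, against 60.3% of all peaks in the 7 lists. AP-1 stood in the middle 300 bases of 0 of the 12, against 14.9% of all peaks. Over whole windows, 8 of the 12 held AP-1, against 47.9% of all peaks. Windows that overlap at a site count the same matches repeatedly, so the 12 are not independent. The 5 windows of the shared site all held the same 3 AP-1 matches. The 3 AP-1 matches of the shared site lay between positions 62029652 and 62029789, within the stretch common to all 5 windows but away from their midpoints. The HIF-1β window in control cells, the furthest to the right of the 5, held no HRE core at all. A match is a string of letters and does not show binding at that position.

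FLJ22447, a long non-coding RNA described in cancer-associated fibroblasts, was present in every control library, at 3.85, 5.72 and 36.6 CPM in replicates 1, 2 and 3. In HIF-2α cells it stood at 0.867, 0.454 and 2.39 CPM, from 36, 13 and 93 counts. All HIF-2α libraries were below all control libraries, and below the control of their own number by factors of 4.45 to 15.3. The fitted log2 fold change was -3.62 ± 0.99 (SE, n = 3 per pool) and -3.28 ± 0.37 with the replicate number in the fit. It rested in part on 1 library, since leaving out control replicate 3 gave -1.94. HIF-1α cells held 10.7, 9.74 and 35.9 CPM, so that every HIF-1α library lay above every HIF-2α library, by 12.3 to 21.5 times within a replicate number and by a log2 difference of 3.91 ± 1.00.

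Against control, FLJ22447 was not shown to differ in HIF-1α cells. The ratios within replicate numbers were 2.77, 1.7 and 0.982, and the log2 fold change was 0.29 ± 0.88 (adjusted p = 0.881, edgeR's quasi-likelihood test). The pools overlapped, since control replicate 3 was above all other libraries. Its sign depended on single libraries, from -0.59 without HIF-1α replicate 3 to 1.97 without control replicate 3, and was also negative without control replicate 1 (-0.18) or control replicate 2 (-0.13). FLJ22447 shares 168 exonic bases with LINC01303 on the opposite strand, and whether counting used strand is not stated. On the same strand it shares 360 exonic bases with a protein-coding gene that the annotation lists without a symbol. The part of both overlaps in the FLJ22447 counts was not tested. The comparison with control uses the control libraries that also entered the choice of the locus.

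SNAPC1, a subunit of the complex that drives transcription of small nuclear RNA genes, was highest in HIF-1α cells. It stood at 16.3, 11.5 and 33.3 CPM in control cells, 31.2, 25.4 and 63.0 CPM in HIF-1α cells, and 9.77, 11.1 and 11.4 CPM in HIF-2α cells. The HIF-1α libraries were above the HIF-2α libraries without overlap, and above control in each of the 3 replicate numbers, by 1.92, 2.21 and 1.89 times. The HIF-2α values were close together and the highest of them lay just under the lowest control. Against HIF-2α cells, the log2 difference was 1.89 ± 0.44 (adjusted p = 0.11, edgeR's quasi-likelihood test), which misses the threshold of 0.05. With the replicate number as a block it was 1.74 ± 0.28 (adjusted p = 0.0102), and 1.42 ± 0.25 (adjusted p = 0.0367) with the block and without the libraries numbered 3. Against control, the log2 fold change was 0.97 ± 0.43 (adjusted p = 0.255) and with the block 0.99 ± 0.27 (adjusted p = 0.0541), neither past the threshold. It was 1.51 without control replicate 3 and 0.47 without HIF-1α replicate 3. HIF-2α against control gave -0.92 ± 0.43, and -0.37 without control replicate 3. The paper reports fusion transcripts in control 786-O cells that hold both HIF1A and SNAPC1 sequence. Their part in the SNAPC1 counts of any pool was not tested.

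PRKCH, the eta isoform of protein kinase C, was the lowest of the detected members in control cells when scaled by length. It stood at 5.82, 8.16 and 12.2 CPM in control cells, 5.37, 7.19 and 7.95 CPM in HIF-1α cells and 3.51, 3.11 and 7.81 CPM in HIF-2α cells. HIF-2α was below control within each number, at 0.604, 0.38 and 0.639 of it, although the pools overlapped. That log2 fold change was -0.86 ± 0.42, and ranged from -1.39 without HIF-2α replicate 3 to -0.54 without control replicate 3. HIF-1α against HIF-2α gave 0.51 ± 0.42 (adjusted p = 0.632, edgeR's quasi-likelihood test). PRKCH shares 419 exonic bases with the same-strand gene without a symbol that also overlaps FLJ22447. The part of that overlap in its counts was not tested.

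MNAT1, the assembly factor of the CDK-activating kinase, stood at 15.5, 16.7 and 21.3 CPM in control, 18.5, 17.5 and 23.9 CPM in HIF-1α and 15.5, 15.9 and 12.1 CPM in HIF-2α cells. TRMT5, which methylates a guanosine beside the anticodon of tRNAs, stood at 16.9, 13.7 and 25.4 CPM in control, 23, 17.7 and 28.1 CPM in HIF-1α and 15.8, 15.4 and 15.3 CPM in HIF-2α cells. Both were higher in all HIF-1α libraries than in all HIF-2α libraries, by small margins. Their log2 differences, 0.46 ± 0.24 for MNAT1 and 0.56 ± 0.28 for TRMT5, did not pass the threshold (adjusted p = 0.437 and 0.412, edgeR's quasi-likelihood test). For both genes the highest library of the control and HIF-1α pools was the one numbered 3, while in HIF-2α cells it was not.

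SLC38A6, a member of a family of amino acid transporters, did not follow the others. It stood at 30.8, 13.8 and 20.5 CPM in control, 25.9, 14.9 and 17.5 CPM in HIF-1α and 23.7, 22.1 and 17.3 CPM in HIF-2α cells, with the pools overlapping. Its log2 fold changes were -0.16 ± 0.33 for HIF-1α and -0.05 ± 0.33 for HIF-2α against control. SLC38A6 and TRMT5 share 57 exonic bases on opposite strands, and whether counting used strand is not stated. TMEM30B, a subunit of phospholipid flippases, had 0 counts in all 9 libraries, which allows at most 0.0553 to 0.108 CPM (unscaled) per library, for counting error only. It shares 356 exonic bases with PRKCH on the opposite strand, and the part of that overlap in its counts of 0 was not tested.

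**Figure D2:**
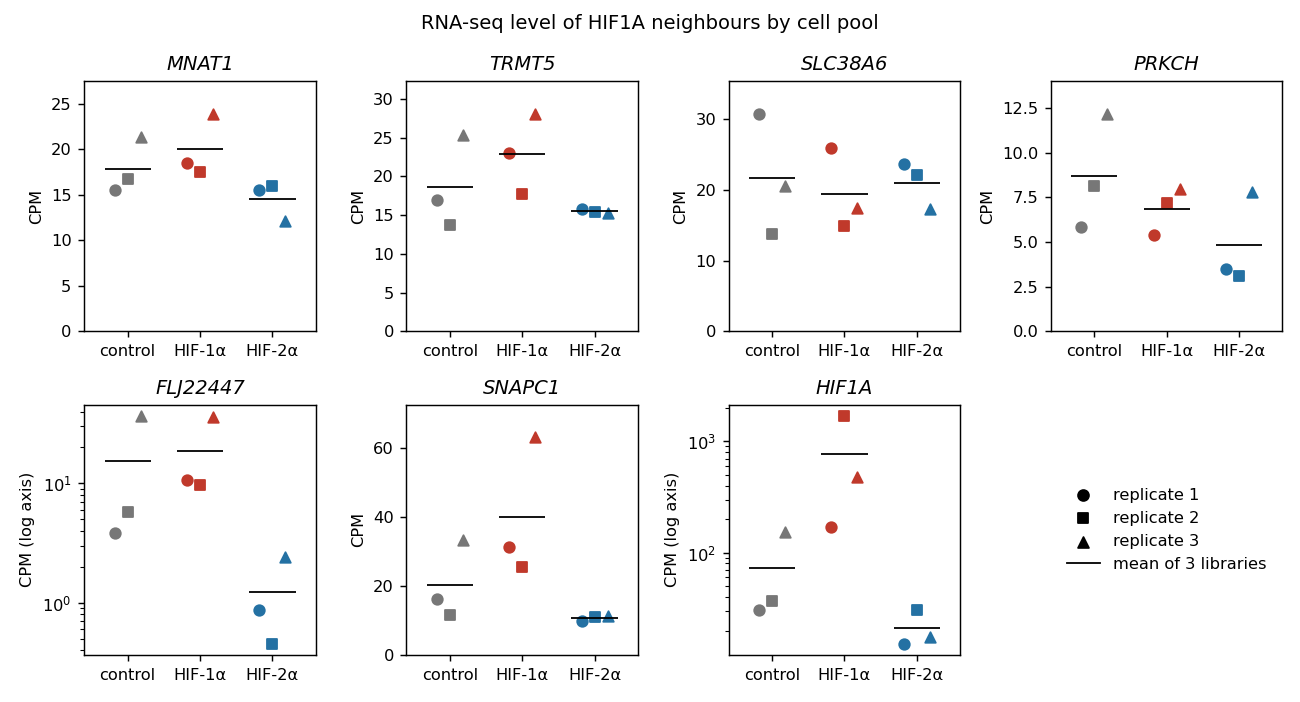
CPM of 6 neighbours of HIF1A and of HIF1A itself in each of the 9 RNA libraries (marker shape gives the replicate number, colour the pool, line the mean of 3), with a log axis for FLJ22447 and HIF1A. FLJ22447 is lowest in the 3 HIF-2α libraries, and SNAPC1 reaches 63.0 CPM in HIF-1α replicate 3.

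Scaled by exonic length in the annotation, which is not the gene set used for counting, control levels ran from 7.86 ± 4.42 CPM per kb (SD, n = 3) for SNAPC1 through 5.38 ± 6.43 for FLJ22447, 4.6 ± 0.798 for MNAT1, 3.93 ± 1.55 for SLC38A6 and 3.39 ± 1.1 for TRMT5 to 0.976 ± 0.362 for PRKCH. Only PRKCH stood clear of its neighbour in that order by more than their spread. In HIF-2α cells FLJ22447 came last, at 0.432 ± 0.356 CPM per kb, beside PRKCH at 0.538 ± 0.291. In HIF-1α cells SNAPC1 led at 15.4 ± 7.82 CPM per kb, followed by FLJ22447 at 6.57 ± 5.2.

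In numbers of calls, 6 of the 7 members passed the filter on low counts, and TMEM30B did not. Without the replicate block, edgeR's quasi-likelihood test called 0 of the 6 in each comparison, where 0% of the 14225 genes tested were called in HIF-1α against control, 0% in HIF-2α against control and 0.0492% in HIF-1α against HIF-2α. At an unadjusted p under 0.05, 2757 of the 14225 genes passed for HIF-1α against control and 838 for HIF-2α against control. For HIF-1α against HIF-2α, 1941 passed. SNAPC1 was the 1 member among the 2757, a number so large that nothing is read from it, and was also among the 1941. With the block, 0 members were called in HIF-1α against control, where 5.41% of genes were called higher and 2.55% lower. FLJ22447 was the 1 member called in HIF-2α against control, where 0.155% of genes were called lower and 0.112% higher, and since that contrast chose the locus the call is no finding. FLJ22447 and SNAPC1 were the 2 called, both higher, in HIF-1α against HIF-2α, where 4.54% of genes were called higher and 1.38% lower, and the call of FLJ22447 uses HIF-2α libraries that entered the choice of the locus. Without the libraries numbered 3 the blocked fit called the same 2 in that comparison, against 1.60% of genes, and 0 in the others. DESeq2 called FLJ22447 lower in HIF-2α cells than in control, where 0.184% of genes were called lower, and FLJ22447 and SNAPC1 higher in HIF-1α than HIF-2α cells, where 3.43% were called higher. As above, nothing is read from the calls of FLJ22447.

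The median log2 fold change of the 6 members was 0.23 in HIF-1α against control, -0.58 in HIF-2α against control and 0.53 in HIF-1α against HIF-2α. Over all genes tested it was 0.04, -0.02 and 0.02. FLJ22447, SNAPC1, MNAT1 and TRMT5 were 4 of 6 with all HIF-1α libraries above all HIF-2α libraries, which held for 10.4% of all genes tested. In HIF-2α against control, FLJ22447 and SNAPC1 were 2 of 6 with all libraries lower, against 5.19% of all genes. None of the 6 was separated in HIF-1α against control, where 12.9% of all genes tested were separated as higher and 11.2% as lower. FLJ22447, whose fall in HIF-2α cells chose the locus, is part of both counts and of the medians. SNAPC1 was the only other member with all HIF-2α libraries below control. Both HIF-2α comparisons share their HIF-2α libraries, and these counts and medians are descriptions.

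**Figure D3:**
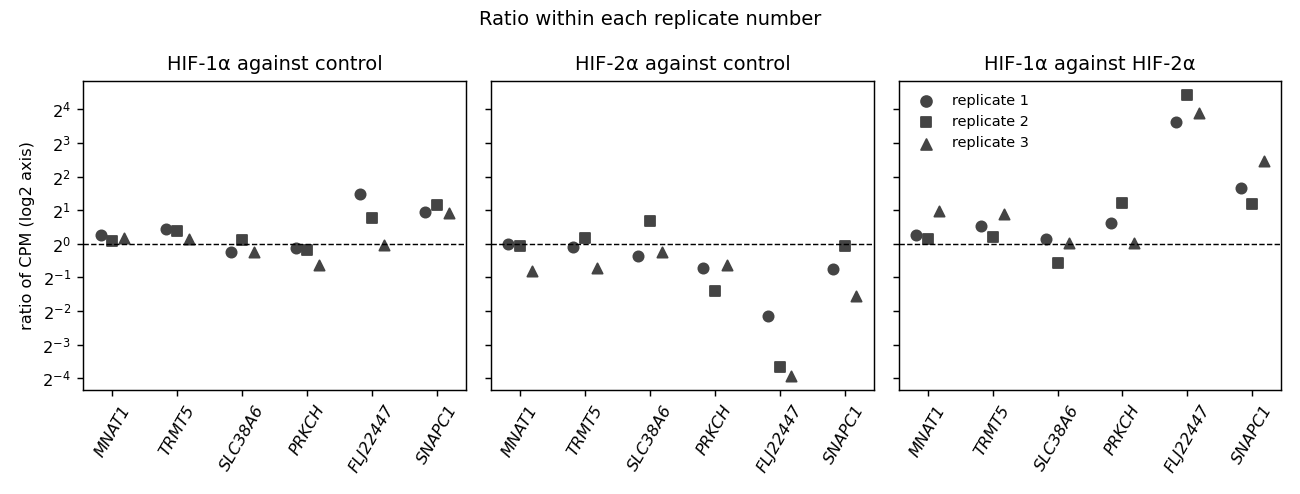
Ratio of CPM between pools within each replicate number (marker shape), on a log2 axis, for the 6 detected members in the 3 comparisons. For FLJ22447 all 3 ratios lie between 12.3 and 21.5 in HIF-1α against HIF-2α, and those of SNAPC1 between 1.89 and 2.21 in HIF-1α against control.

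FLJ22447, SNAPC1 and PRKCH were highest in the library numbered 3 in all 3 pools, which held for 12.3% of the genes tested. The part of whatever sets those libraries apart in the levels above was not tested. Across the 9 libraries, the 5 genes whose log2 CPM followed FLJ22447 most closely were KIAA1199, with Pearson r = 0.971, CCDC85B (0.968), TAGLN3 (0.968), ADAMTS15 (0.965) and C16orf45 (0.959). ADAMTS15, a secreted protease, shows the shared shape, at 2.59, 6 and 12.7 CPM in control, 8.14, 9.95 and 40.9 CPM in HIF-1α and 0.265, 0.105 and 1.26 CPM in HIF-2α cells. These libraries share pools and replicate numbers, so the values are descriptive. Among the neighbours, r with FLJ22447 was 0.897 for SNAPC1, 0.824 for TRMT5, 0.811 for PRKCH, 0.797 for MNAT1 and -0.245 for SLC38A6. SNAPC1 ranked 61 of the 14224 genes.

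HIF1A itself, which lies between FLJ22447 and SNAPC1, stood at 30.4, 36.7 and 152 CPM in control and 15.3, 30.4 and 17.5 CPM in HIF-2α cells, a log2 fold change of -1.79 ± 0.82 (adjusted p = 0.837, edgeR's quasi-likelihood test). Control replicate 3 was again the highest of those 6 libraries, and without it the value was -0.68. In HIF-1α cells HIF1A reached 171, 1682 and 473 CPM, where viral and chromosomal transcripts cannot be told apart. The log2 CPM of HIF1A had r = 0.719 with that of FLJ22447. EPAS1, which encodes HIF-2α, was higher in HIF-2α than in control cells in all 3 replicate numbers, by 2.07, 14.5 and 5.43 times.

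The wider 14q23 neighbourhood served as a comparison, with 18 genes of which 11 passed the filter. Without the block, 0 of the 11 were called in any comparison. Their log2 fold changes in HIF-2α against control were all smaller in size than that of FLJ22447, with 0.71 for SYNE2 and a median of 0.10. With the block, SIX4, SYNE2 and ZBTB25, 3 of the 11, were called higher in HIF-1α cells than in control, against 5.41% of all genes tested. Without the libraries numbered 3 none of these calls remained. SIX4, a homeobox transcription factor, has an annotated start 0.16 kb from the midpoint of the HIF-1β peak of HIF-1α cells. It stood at 5.8, 5.35 and 4.22 CPM in control and 13.9, 10.8 and 20.1 CPM in HIF-1α cells.

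**Figure D4:**
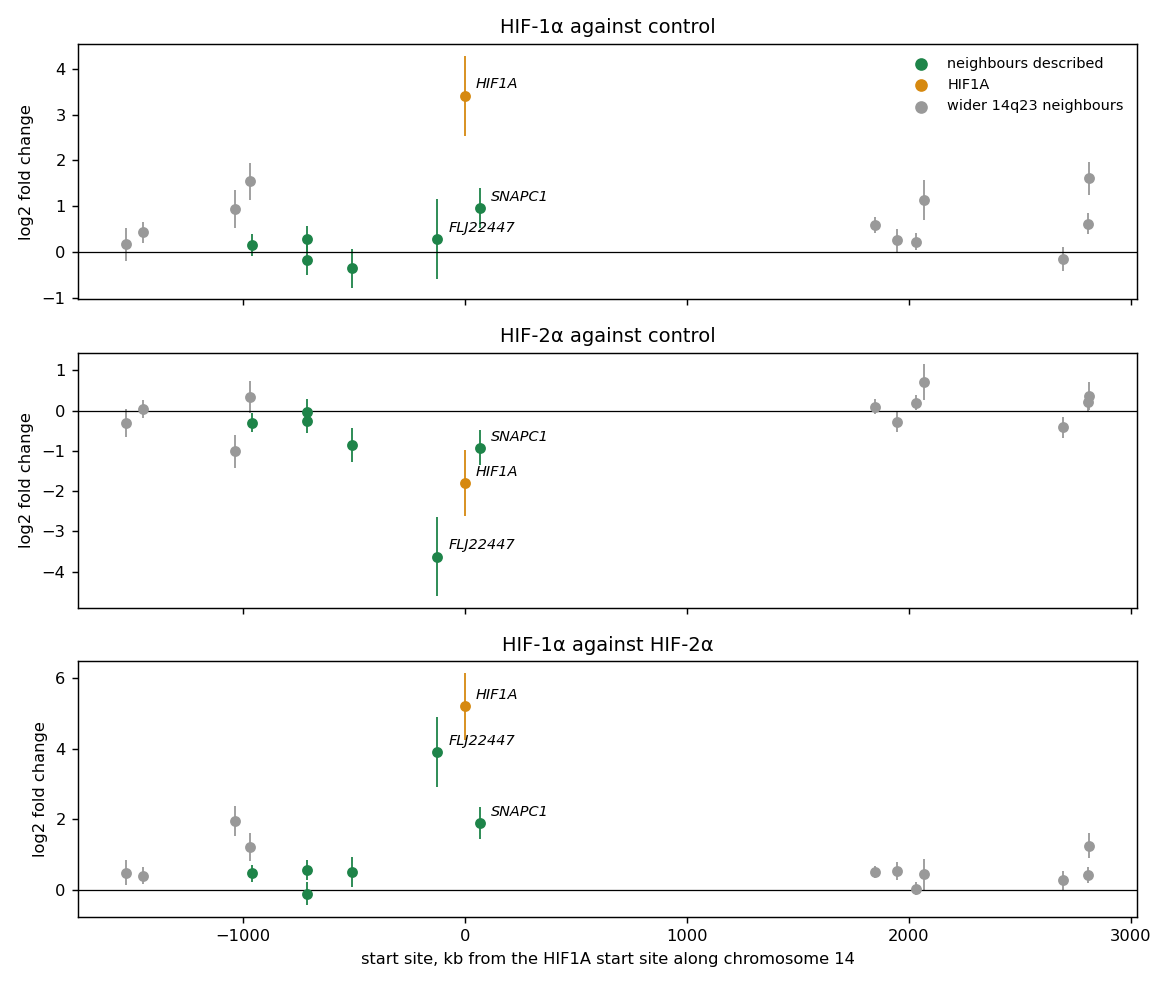
Log2 fold change ± SE of each tested 14q23 gene in the 3 comparisons (fit without the block) against the position of its start relative to HIF1A in kb, with the 6 detected members in green and 11 wider neighbours in grey. In HIF-2α against control FLJ22447 lies lowest at -3.62, and in HIF-1α against control HIF1A stands highest.

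Partners and relatives of the members were followed in lists, and none of their genes was called without the block. With the block, 5.41% of all genes tested were called higher and 2.55% lower in HIF-1α against control. In HIF-1α against HIF-2α, 4.54% were called higher and 1.38% lower. The calls in the lists stand beside these shares and are descriptions. Of the 4 SNAPc subunits, SNAPC3 was called higher with the block in HIF-1α cells than in control (log2 fold change 1.16 ± 0.20, adjusted p = 0.0315, edgeR's quasi-likelihood test) and than in HIF-2α cells (0.80 ± 0.19, adjusted p = 0.0465). It stood at 24.4, 20.3 and 21.3 CPM in control, 42.6, 53.4 and 49.9 CPM in HIF-1α and 33.9, 24 and 26.8 CPM in HIF-2α cells. The median of the 4 subunits was -0.25 in HIF-1α against control without the block. None of the 9 genes tested beside MNAT1 for the CDK-activating kinase and TFIIH was called in either fit.

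Of 6 protein kinase C genes tested, PRKCQ and PRKCZ were called higher in HIF-1α than in HIF-2α cells with the block. Over all genes tested that share was 4.54%, and it was 5.41% for HIF-1α against control. Of 13 P4-ATPase and CDC50 genes tested, ATP8B1 and ATP8B2 were called higher in HIF-1α cells than in control, and ATP8B2 and ATP10A higher in HIF-1α than in HIF-2α cells. ATP8B2, a flippase subunit, stood at 3.16, 3.93 and 9.9 CPM in control, 18.1, 15.6 and 37.4 CPM in HIF-1α and 2.41, 6.18 and 2.7 CPM in HIF-2α cells. Of 8 SLC38 genes tested only SLC38A11 was called, in HIF-1α against HIF-2α, at no more than 0.557 CPM in any library. Of 13 tRNA methyltransferases, TRMT10C was the 1 called and was lower in HIF-1α cells than in control (-0.65 ± 0.17, adjusted p = 0.0488). Without the libraries numbered 3, the calls of PRKCZ and of ATP8B2 in HIF-1α against HIF-2α were the only ones in these lists that remained in the blocked fit.

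The HRE core was also counted in RefSeq promoters of GRCh38.p14, 250 bases before to 50 after a start, where it stands in 48.4% of 35116 promoters. SNAPC1 had 6 matches, PRKCH 2, and MNAT1 and TRMT5 1 each. The promoters of SLC38A6, TMEM30B and LINC03033 had 0.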

How the data were processed

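RNA-seq values are raw counts per gene symbol as deposited; the authors trimmed reads with Trim Galore 0.3.3, aligned them to GRCh37 with TopHat 2.0.8b and Bowtie 1.0.0, kept unique alignments and counted UCSC genes with HTSeq 0.5.4p3. ChIP-seq peaks were deposited as windows without score, called by both T-PIC and MACS after alignment with BWA 0.7.5a-r405. The RNA was prepared in triplicate, and since no source used here says that these were separate cultures, p-values measure the spread between these libraries, which may be technical.

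Counts were fitted in edgeR 4.0.16 (R 4.3.3) with all 9 RNA libraries, pool as the only term, TMM factors, the edgeR filter on low counts (14225 genes kept) and the quasi-likelihood test, adjusted by Benjamini-Hochberg over all genes tested, with a threshold of 0.05. Alternatives were a replicate block, DESeq2 1.42.0, its size factors, no filter, only the pools compared, and each library left out. A fit without the libraries numbered 3 was added after seeing the data. Replicate numbers paired the libraries: deviations from pool means correlated at 0.377 to 0.65 in 9 pairs with the same number and at -0.451 to 0.0205 in 18 with different numbers. No pair of replicates agreed within sampling noise. The fit was tested on simulated data. Members and lists were chosen with earlier results of these data known. Named beside the members were HIF1A, EPAS1, the 5 genes most like FLJ22447 (log2 of CPM + 0.5) and genes of fixed lists past the threshold in either edgeR fit, at most 4 per list and comparison. Rows for the antisense genes of HIF1A are not analysed here. Values of 1 of the 18 genes listed as wider neighbours are not reported here. Motifs were searched on both strands of GRCh37 (Python 3.11.15), and genes were placed with GENCODE v44 lifted to GRCh37.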

Additional observations from a re-analysis of the deposited data

How the results depend on the processing

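The number of members called without the replicate block was 0 in each comparison, and leaving out each library in turn gave 0 to 0 in all of them. It was 1 in HIF-2α against control and 2 in HIF-1α against HIF-2α with the replicate block, and likewise 1 and 2 with DESeq2. With the replicate block and without replicate 3 it was 2 in HIF-1α against HIF-2α. The paired fit (replicate block) changed no other call of a member. Of 288 log2 fold changes of members under alternatives, 13 changed sign. With 1 library left out, FLJ22447 in HIF-1α against control ranged from -0.59 (without HIF-1α replicate 3) to 1.97, and was also negative without control replicate 1 (-0.18) or control replicate 2 (-0.13). SLC38A6 ranged from -0.43 to 0.17 (without control replicate 1) in HIF-1α against control and from -0.39 to 0.02 (without HIF-1α replicate 2) in HIF-1α against HIF-2α. In HIF-2α against control, SLC38A6 changed sign in 5 of 16 alternatives (from -0.29 to 0.29) and TRMT5 in 3 of 16 (from -0.45 to 0.03). The cause was not tested. Peaks at the locus numbered 11 without a flank and 13 with a flank of 200 kb, and the number of sites with at least 50% of the window in common was 6. An HRE core was in 10 of the 12 windows over the middle 1000 bases, against 90.6% of all peaks. Over the whole window, which is a longer sequence, it was in 11, against 98.1% of all peaks. Low counts limit FLJ22447 in HIF-2α cells, where 13 counts stand behind the lowest value, and 3 libraries per pool limit all tests. Peak lists have 1 library each, and their depth is unknown.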
